A study of Mus musculus with 4 samples.

Results

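The interferon regulatory factors (IRFs) are a family of transcription factors that share a DNA-binding domain and bind interferon-stimulated response elements in the promoters of immune genes. The genes of this family were taken by symbol from a table of 49492 gene rows, and 8 are described: Irf1, Irf2, Irf3, Irf4, Irf5, Irf7, Irf8 and Irf9. RNA sequencing had been made from whole testes of male C57BL/6J mice, in 4 libraries. By the labels all mice had received LPS, an endotoxin of bacterial membranes sensed by TLR4, and 2 libraries carried a knockdown of Spry1 (shSpry1) while 2 carried a control hairpin (shControl, genotype WT). The labels do not say how the hairpins were delivered, nor if each replicate was a different mouse. The p-values therefore reflect the spread among these 4 libraries alone, and that spread may be technical.

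The headings of the counts read LPS or NC with a number. NC was taken to be the control hairpin and LPS the Spry1 knockdown, which is a reading of the names, because LPS stands in all 4 titles. If the headings mean LPS against no LPS, every difference below belongs to that contrast. For that reason they are named by heading, as LPS columns and NC columns. Fold changes are LPS over NC. Spry1, the targeted gene, had counts of 26 and 17 in the LPS columns and of 45 and 41 in the NC columns. Its log2 fold change was -0.82 ± 0.28 (SE; edgeR, Benjamini-Hochberg adjusted p = 0.0212), a call that does not settle the reading of the headings. DESeq2 did not call Spry1 (adjusted p = 0.297). The edgeR adjusted p of Spry1 was 0.183 after leaving out LPS replicate 2, 0.0952 after leaving out NC replicate 1 and 0.0653 after leaving out NC replicate 2.

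Libraries held 17612342 to 19187627 counts in the LPS columns and 21081589 to 22451132 counts in the NC columns. The tissue label was checked against marker genes of testis cells. Summed germ cell markers reached 14911 and 14339 CPM (a normalised read count, scaled to the TMM-adjusted size of each library) in the LPS columns and 20843 and 20133 CPM in the NC columns. Prm2 alone gave 6583 and 6422 CPM of these sums in the LPS columns and 10898 and 10073 CPM in the NC columns. Of 12 germ cell markers tested, edgeR called 3 higher and 7 lower, against 15.2% higher and 16.3% lower of all tested genes. Sertoli cell markers summed to 943 and 929 CPM in the LPS columns and 695 and 688 CPM in the NC columns, and Leydig cell markers to 454 and 525 CPM in the LPS columns and 813 and 856 CPM in the NC columns. Clu gave 774 and 765 CPM of the Sertoli cell sums in the LPS columns and 563 and 557 CPM in the NC columns. Cyp17a1 gave 41.2 and 49.4 CPM of the Leydig cell sums in the LPS columns and 247 and 250 CPM in the NC columns. Of 9 Sertoli cell markers tested, 4 were called higher and 1 lower. Of 8 Leydig cell markers, 2 were called higher and 4 lower, so the sums do not speak for every member.

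IRF proteins work in relays. IRF3 is present in most cells before infection and is phosphorylated by the kinases TBK1 and IKKε after a receptor such as TLR4 or TLR3 has bound its ligand. It switches on interferon beta, and interferon then acts through the receptor, the kinases JAK1 and TYK2 and ISGF3, a complex in which IRF9 binds the DNA. ISGF3 raises IRF7, which amplifies the response. IRF1 is induced by interferon gamma and by NF-kB, and IRF2 binds the same sites and can oppose it. IRF5 acts downstream of MyD88 in macrophages, while IRF4 and IRF8 belong mainly to blood-derived cells and bind DNA together with the factor PU.1.

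The promoter windows of 4 of the genes are shown so that the letters searched for can be seen in them. Among the genes that rose (below), Irf1 and Irf8 had a match and Irf7 and Irf9 had none in the windows searched. Irf2, which fell, had matches to all 3 motifs. RefSeq promoter windows (GRCm38.p6, the assembly known as mm10) run from 250 bases before an annotated start through the first 50 bases of the transcript, and all 8 genes matched, with 11 windows. Both strands were searched for the interferon-stimulated response element core (ISRE; GAAA repeated after a gap of 2 bases), the gamma-activated site TTCNNNGAA (GAS) and the kB consensus of NF-kB. Capitals mark matches, each sequence is given 5′ to 3′ on the strand of its gene, and the windows of Irf1, Irf2 and Irf8 that held a match are shown beside that of Irf7, the gene with the largest change and no match.
Irf1, chr11:53769764-53770063, plus strand: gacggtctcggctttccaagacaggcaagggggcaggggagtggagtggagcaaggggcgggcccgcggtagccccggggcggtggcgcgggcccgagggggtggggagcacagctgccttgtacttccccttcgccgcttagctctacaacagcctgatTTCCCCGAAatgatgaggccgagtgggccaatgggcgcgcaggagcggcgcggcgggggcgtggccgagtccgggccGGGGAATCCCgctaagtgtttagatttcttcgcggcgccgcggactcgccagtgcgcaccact
Irf2, chr8:46739495-46739794, plus strand: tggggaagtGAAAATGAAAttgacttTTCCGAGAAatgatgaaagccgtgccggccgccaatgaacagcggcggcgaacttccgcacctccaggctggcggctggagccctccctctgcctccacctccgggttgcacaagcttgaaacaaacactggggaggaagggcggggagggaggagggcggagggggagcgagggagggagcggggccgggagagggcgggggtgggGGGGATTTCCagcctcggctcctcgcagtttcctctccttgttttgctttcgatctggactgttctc
Irf8, chr8:120736108-120736407, plus strand: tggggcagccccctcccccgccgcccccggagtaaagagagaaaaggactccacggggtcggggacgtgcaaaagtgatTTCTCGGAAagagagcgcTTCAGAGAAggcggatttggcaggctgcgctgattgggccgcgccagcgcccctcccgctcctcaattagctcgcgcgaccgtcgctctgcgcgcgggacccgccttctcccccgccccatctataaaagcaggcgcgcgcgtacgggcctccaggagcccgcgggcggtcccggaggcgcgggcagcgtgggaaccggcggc
Irf7, chr7:141266375-141266674, minus strand: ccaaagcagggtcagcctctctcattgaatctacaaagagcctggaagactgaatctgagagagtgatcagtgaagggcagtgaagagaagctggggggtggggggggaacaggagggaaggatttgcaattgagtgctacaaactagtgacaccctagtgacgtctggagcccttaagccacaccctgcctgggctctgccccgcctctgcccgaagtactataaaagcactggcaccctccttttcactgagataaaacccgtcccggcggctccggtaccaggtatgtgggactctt

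The first Irf1 window held 1 GAS match at positions -90 to -82 from the start and 1 kB match at -13 to -4. The Irf2 window held an ISRE match at -241 to -232, a GAS match at -224 to -216 and a kB match at -17 to -8. The first Irf8 window held 2 GAS matches, at -171 to -163 and at -153 to -145. No listed letters occurred in the windows of Irf3, Irf4, Irf5, Irf7 and Irf9, which says only that these letters are not in those windows. Both Irf9 windows lie inside its gene model, which starts at 55603571 on chromosome 14. They cover 55603735 to 55604034 and 55604329 to 55604628, so bases before that start were not searched. Among all 32851 promoter windows, 3.44% held an ISRE match, 8.30% a GAS match and 4.51% a kB match. None of these motifs overlapped another in the IRF windows.

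**Figure D1:**
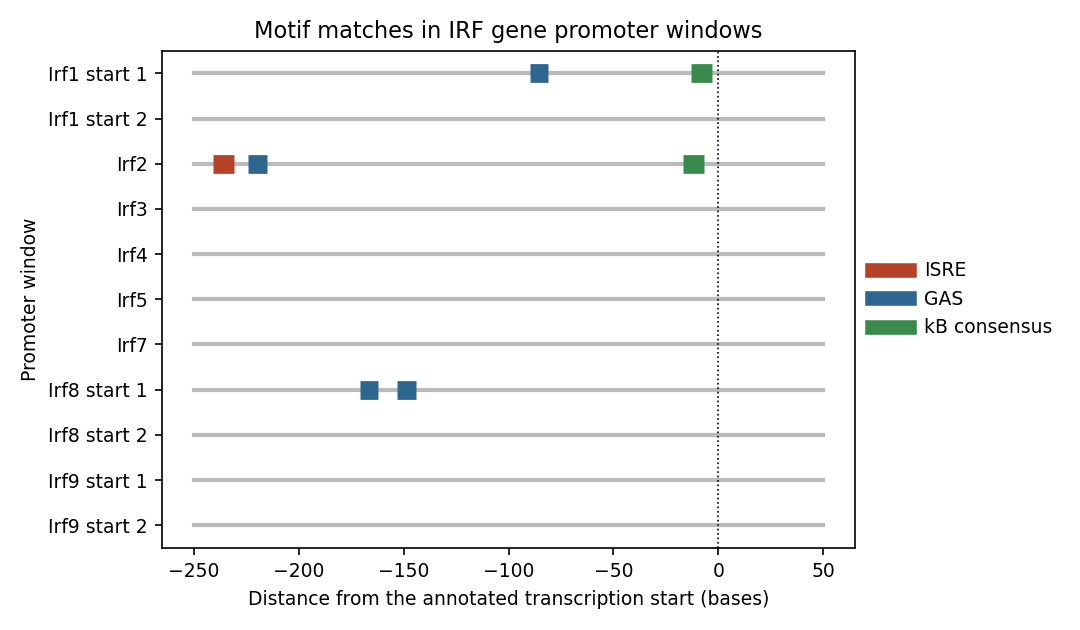
Matches to 3 motifs in the 11 promoter windows of the 8 IRF genes, against distance in bases from the annotated transcription start (dotted line). Coloured blocks are matches on either strand and grey lines the windows; Irf1, Irf2 and Irf8 are the genes with a match.

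Of the 8 genes, all 8 passed the filter on low counts, 4 rose, 1 fell and 3 were not called in the LPS columns against the NC columns (edgeR's quasi-likelihood test, Benjamini-Hochberg adjusted over all 20855 genes tested, called under 0.05). Over all tested genes 15.2% were called higher and 16.3% lower. Those that rose were Irf7, Irf1, Irf9 and Irf8, and Irf2 fell. With other rules the called shares of all tested genes were 20.2% higher and 12.4% lower (library size scaling) and 6.41% higher and 8.17% lower (DESeq2). In both directions together they were 31.3% with limma-voom, 18.7% with no filter on low counts, 33.4% with a replicate block, 26.3% and 22.7% without LPS replicate 1 or 2, and 22.3% and 23.4% without NC replicate 1 or 2, against 31.5% in the edgeR fit reported. The libraries of the groups did not overlap for any of the 8 genes, which was also the case for 64.1% of all tested genes. In bulk tissue, a change in the number of cells of a type and a change in RNA per cell cannot be told apart.

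**Figure D2:**
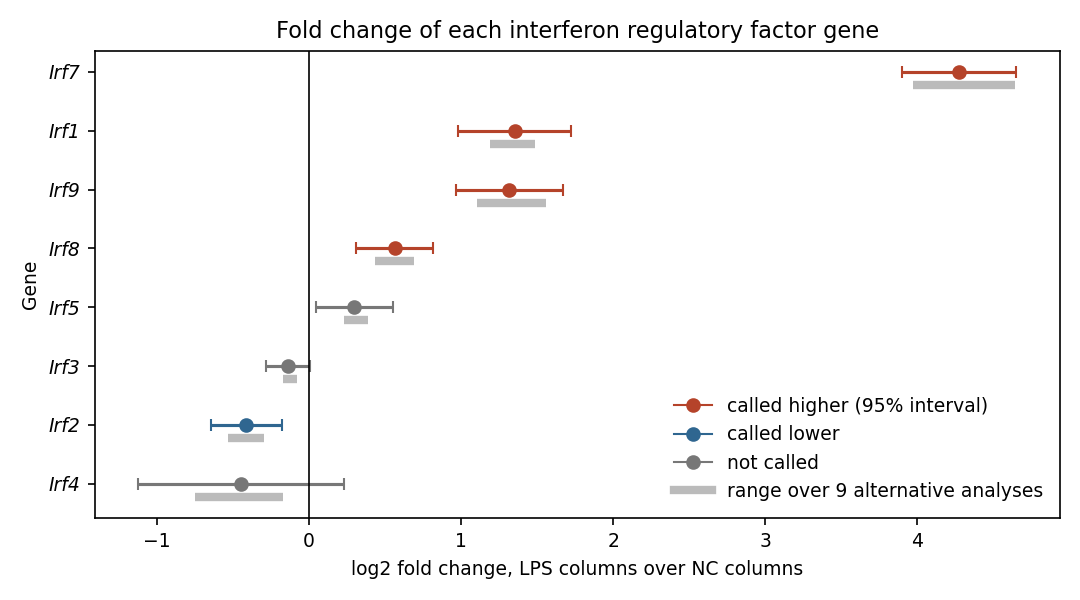
log2 fold change (LPS columns over NC columns) of the 8 IRF genes, with 95% intervals from edgeR's quasi-likelihood fit (2 libraries per group) and, as grey bars, the range over 9 alternative analyses. Irf7 lies at 4.28, apart from Irf1 and Irf9 at 1.35 and 1.32, and the interval of Irf2 lies below 0.

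Irf7, the amplifier of the type I interferon response, moved most. It had counts of 307 and 296 in the LPS columns and of 14 and 21 in the NC columns, out of a gene model of 3776 bases (ENSMUSG00000025498.15, chromosome 7, 141262706 to 141266481, minus strand). Both LPS libraries stood far above both NC libraries. Its level was 16.1 ± 0.71 CPM in the LPS columns and 0.830 ± 0.27 CPM in the NC columns (SD, n = 2 per group), a ratio of 19.4. The log2 fold change was 4.28 ± 0.18 (SE; edgeR, Benjamini-Hochberg adjusted p = 1.81e-20), the rank of 53 among 20855 genes ordered by fold change. The model shares 45 exon bases with Phrf1 on the opposite strand, which had counts of 4030 and 3699 in the LPS columns and of 4556 and 4050 in the NC columns and was not called (log2 fold change 0.03 ± 0.05).

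Irf1, an activator of antigen presentation genes induced by interferon gamma, rose as well. It had counts of 134 and 99 in the LPS columns and of 55 and 48 in the NC columns (ENSMUSG00000018899.16, chromosome 11, 53770014 to 53778374, plus strand). Both LPS libraries stood above both NC libraries. Its level was 6.17 ± 0.89 CPM in the LPS columns and 2.42 ± 0.11 CPM in the NC columns (SD, n = 2 per group). This gave 1.35 ± 0.18 as the log2 fold change (edgeR, Benjamini-Hochberg adjusted p = 2.75e-07). The opposite-strand model Gm17334 shares 135 exon bases with it and had counts of 21 and 15 in the LPS columns and of 7 and 4 in the NC columns. Whether the counting used strand is not given in the sources used here, so counts from stretches shared by overlapping genes, here and below, are uncertain.

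Irf9, the DNA-binding subunit of ISGF3, had counts of 135 and 132 in the LPS columns and of 53 and 68 in the NC columns (ENSMUSG00000002325.15, chromosome 14, 55603571 to 55610030, plus strand). Both LPS libraries lay above both NC libraries, and the NC libraries differed more from each other than the LPS libraries did. Its level was 7.12 ± 0.38 CPM in the LPS columns and 2.86 ± 0.64 CPM in the NC columns (SD, n = 2 per group). Its fold change came to 1.32 ± 0.17 in log2 (edgeR, Benjamini-Hochberg adjusted p = 1.62e-07). Rnf31, a ubiquitin ligase gene on the same strand that shares 123 exon bases with Irf9, was not called, at -0.05 ± 0.14.

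Irf8, which is needed for the development of monocytes and of some dendritic cells, rose by less. It had counts of 204 and 221 in the LPS columns and of 170 and 156 in the NC columns (ENSMUSG00000041515.10, chromosome 8, 120736358 to 120756694, plus strand). In CPM the LPS libraries, at 10.3 and 12.4, were both above the NC libraries, at 7.73 and 7.60. The log2 fold change was 0.56 ± 0.12 (edgeR, Benjamini-Hochberg adjusted p = 0.000535). The model Gm20388 on the same strand spans the whole of Irf8 with 0 shared exon bases, and it was also called higher, at 0.37 ± 0.11, though not by DESeq2 (adjusted p = 0.180). Its edgeR adjusted p was 0.0542 after leaving out LPS replicate 2 and 0.0962 after leaving out NC replicate 1.

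Irf2, the binding competitor of Irf1, fell. It had counts of 175 and 187 in the LPS columns and of 290 and 256 in the NC columns (ENSMUSG00000031627.9, chromosome 8, 46739732 to 46847458, plus strand). Its level was 9.67 ± 1.13 CPM in the LPS columns and 12.8 ± 0.50 CPM in the NC columns (SD, n = 2 per group), and the lowest NC library stood above the highest LPS library. The log2 fold change was -0.41 ± 0.12 (edgeR, Benjamini-Hochberg adjusted p = 0.00558). DESeq2 did not call Irf2 (adjusted p = 0.140). Leaving out LPS replicate 1 gave -0.29 (edgeR, Benjamini-Hochberg adjusted p = 0.116) and leaving out NC replicate 1 gave -0.36 (edgeR, adjusted p = 0.0504). Across all alternatives the adjusted p of Irf2 lay between 0.00207 and 0.140 (edgeR, DESeq2 or limma-voom).

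The 3 genes that were not called were Irf3, Irf5 and Irf4. Irf3, the factor held ready for activation by phosphorylation, had counts of 776 and 721 in the LPS columns and of 942 and 923 in the NC columns (ENSMUSG00000003184.15, chromosome 7, 44997648 to 45002848, plus strand). In CPM these came to 39.4 and 40.4 in the LPS columns and 42.8 and 45.0 in the NC columns, so that the groups lay close together without overlapping. Its log2 fold change was -0.14 ± 0.07, with a 95% interval of -0.28 to 0.00438 (edgeR, Benjamini-Hochberg adjusted p = 0.136). Its opposite-strand neighbour Bcl2l12, a BCL2-like gene sharing 88 exon bases, was called higher at 0.27 ± 0.09, though not by DESeq2 (adjusted p = 0.168). For Bcl2l12 the edgeR adjusted p was 0.0803 after leaving out LPS replicate 2 and 0.156 after leaving out NC replicate 2.

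Irf5, a macrophage factor that drives inflammatory cytokine genes, had counts of 191 and 171 in the LPS columns and of 181 and 152 in the NC columns (ENSMUSG00000029771.12, chromosome 6, 29526625 to 29541871, plus strand). On the CPM scale the LPS libraries, at 9.69 and 9.57, lay above the NC libraries, at 8.22 and 7.41. The log2 fold change was 0.30 ± 0.12, with a 95% interval of 0.05 to 0.55 (edgeR, Benjamini-Hochberg adjusted p = 0.0646). Scaling by library size alone turned this into a call, at 0.36 (edgeR, Benjamini-Hochberg adjusted p = 0.0265), and over the alternatives the adjusted p of Irf5 ranged from 0.0265 to 0.404 (edgeR, DESeq2 or limma-voom). The nuclear import gene Tnpo3, on the opposite strand, shares 411 of the 2905 exon bases of Irf5 and was called higher at 0.29 ± 0.07.

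Irf4, a lymphocyte and dendritic cell factor, was the least counted of the 8 in the LPS columns, while Irf7 was in the NC columns. Irf4 had counts of 14 and 19 in the LPS columns and of 27 and 24 in the NC columns (ENSMUSG00000021356.10, chromosome 13, 30749226 to 30766927, plus strand). Its level was 0.887 ± 0.25 CPM in the LPS columns and 1.20 ± 0.04 CPM in the NC columns (SD, n = 2 per group). Its log2 fold change of -0.45 ± 0.33 had a 95% interval of -1.12 to 0.23 (edgeR, Benjamini-Hochberg adjusted p = 0.335). No difference was called at these counts, and the interval spans changes in both directions.

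Levels can be set against each other only per length, and RPKM (CPM per kilobase of gene model) was used for that. The length counts every annotated exon base of a gene, and for Irf7 it is 1 block of 3776 bases that covers the whole gene. Ranks and shares between genes therefore depend on the annotation. In the LPS columns the order of means was Irf3 at 11.6 ± 0.21 RPKM, Irf7 at 4.26 ± 0.19, Irf5 at 3.32 ± 0.03, Irf8 at 1.61 ± 0.20, Irf1 at 1.55 ± 0.22, Irf9 at 1.32 ± 0.07, Irf2 at 1.31 ± 0.15 and Irf4 at 0.188 ± 0.05 (SD, n = 2). Irf8 overlapped Irf1, and both Irf1 and Irf9 overlapped Irf2. In the NC columns the order was Irf3 at 12.8 ± 0.45 RPKM, Irf5 at 2.69 ± 0.20, Irf2 at 1.73 ± 0.07, Irf8 at 1.09 ± 0.01, Irf1 at 0.608 ± 0.03, Irf9 at 0.531 ± 0.12, Irf4 at 0.254 ± 0.01 and Irf7 at 0.220 ± 0.07. There Irf1 overlapped Irf9 and Irf4 overlapped Irf7. Irf7 thus stood at rank 2 in the LPS columns and at rank 8 in the NC columns.

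**Figure D3:**
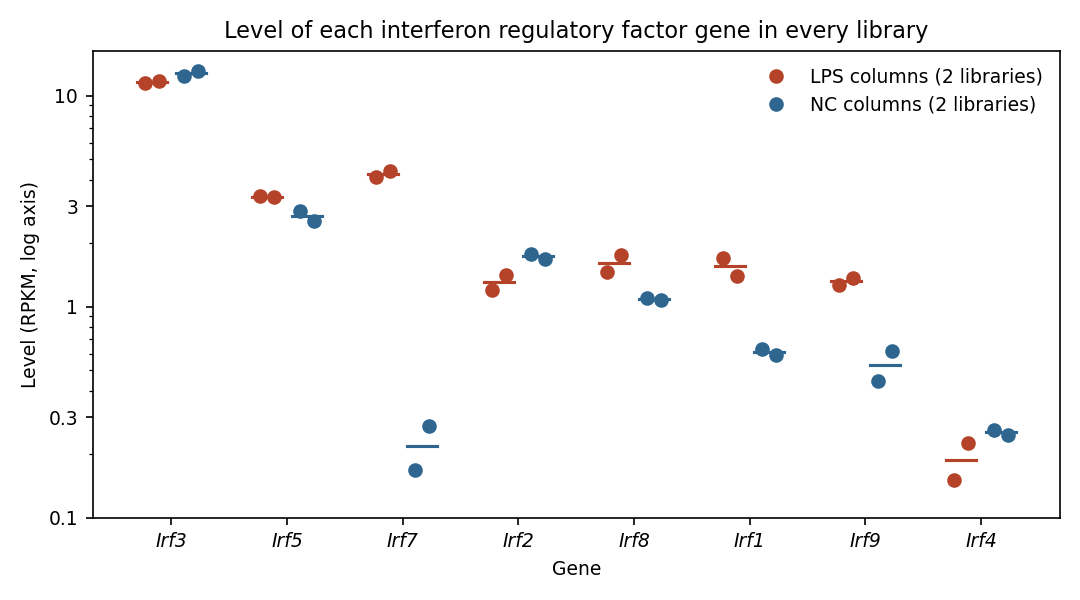
Level of each IRF gene in RPKM on a log axis, with each point a library and each short line the mean of 2 libraries. Irf3 is the highest in both groups, and Irf7 sits at 4.12 and 4.39 RPKM in the LPS columns and at 0.168 and 0.271 RPKM in the NC columns.

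The make-up of the family's transcripts differed accordingly. The summed level of the 8 genes was 24.7 and 25.6 RPKM in the LPS columns and 19.6 and 20.1 RPKM in the NC columns. Without Irf3 the sums were 13.3 and 13.8 RPKM in the LPS columns and 7.21 and 7.04 RPKM in the NC columns. Irf3 made up 46.3% and 45.9% of the sum in the LPS columns and 63.3% and 65.0% in the NC columns, while Irf7 made up 16.7% and 17.2% in the LPS columns and 0.857% and 1.35% in the NC columns. The RPKM ratio of Irf1 to its competitor Irf2 was 1.42 and 0.985 in the LPS columns and 0.353 and 0.349 in the NC columns, so Irf1 was above Irf2 in 1 LPS library and below it in the other 3 libraries. The RPKM ratio of Irf8 to Irf4, the pair that share PU.1 as a partner, was 9.74 and 7.77 in the LPS columns and 4.21 and 4.34 in the NC columns.

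**Figure D4:**
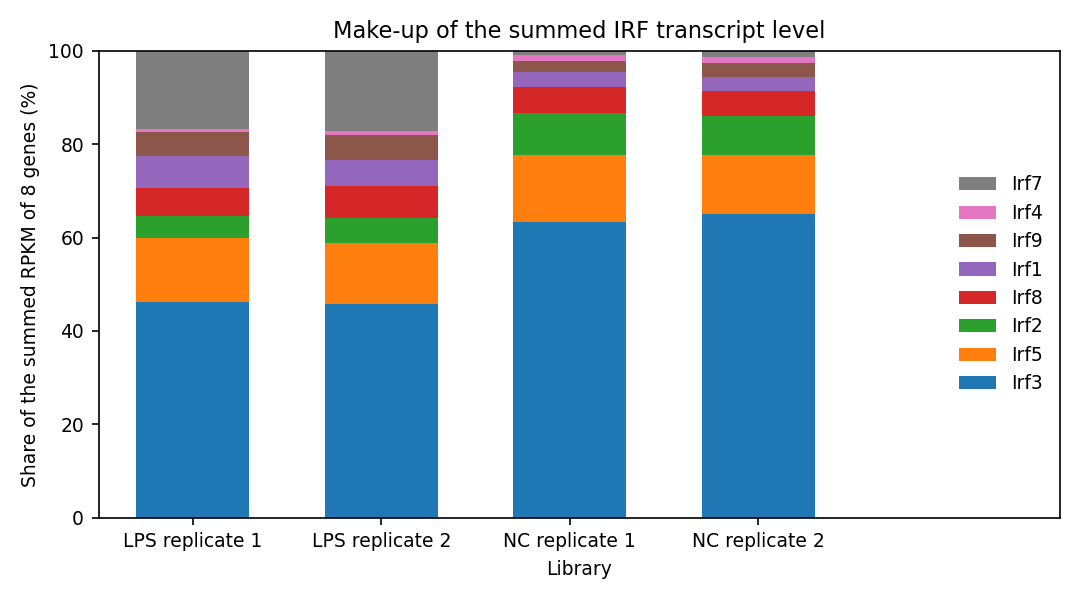
Share of each gene in the summed RPKM of the 8 IRF genes, in percent, with 1 bar per library. Irf3 takes 46.3% and 45.9% in the LPS bars and 63.3% and 65.0% in the NC bars, and the block of Irf7 is 16.7% and 17.2% in the LPS bars.

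Profiles were compared by Euclidean distance between mean-centred log2 CPM values (prior count 2) over the 4 libraries. The genes nearest to Irf7 were Clec4e, Gm10260 and Tgtp2, at distances of 0.0427, 0.334 and 0.345. With 2 libraries per group such a distance follows mainly the size of the group difference, and shared regulation was not tested. The small distance of Clec4e depends on the prior count, since its fitted log2 fold change was 6.13 ± 0.61, against 4.28 ± 0.18 for Irf7. Clec4e, a lectin receptor of macrophages, had counts of 39 and 39 in the LPS columns and of 0 and 1 in the NC columns. Tgtp2, an interferon-inducible GTPase gene, had counts of 69 and 66 in the LPS columns and of 2 and 5 in the NC columns. Gm10260 had counts of 263 and 198 in the LPS columns and of 8 and 14 in the NC columns.

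Interferon genes themselves were hardly counted, while receptor subunits were. Of 17 listed ligands and receptors, 5 passed the filter on low counts, of which 2 rose, 0 fell and 3 were not called by edgeR (all tested genes: 15.2% higher, 16.3% lower). At an unadjusted p under 0.05 edgeR and limma-voom each had 1 lower, Ifngr1, a receptor subunit for interferon gamma, and DESeq2 had 0 lower. After adjustment DESeq2 had 0 higher in this list (adjusted p = 0.0715 for Ifnar2 and 0.137 for Il10rb). Ifnar2, a subunit of the type I interferon receptor, rose by 0.62 ± 0.15 on the log2 scale, and Il10rb, which also serves the lambda interferon receptor, by 0.61 ± 0.17. The call of Ifnar2 was lost in edgeR without LPS replicate 2 (0.36, adjusted p = 0.129). Ifnb1, Ifng, Ifne, Ifna1 and Ifna5 had 0 counts in all 4 libraries. Taking 3 counts as the floor for counting error, this allows up to 0.156 and 0.170 CPM in the LPS columns and 0.134 and 0.142 CPM in the NC columns. Unlike the other CPM values, these limits use library sizes without the TMM factors.

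Among sensors, adaptors and kinases that activate IRF proteins, 23 of 29 were tested, 6 rose, 1 fell and 16 were not called (all tested genes: 15.2% higher, 16.3% lower). Scaled by library size alone, 10 rose and 0 fell (all tested genes: 20.2% higher, 12.4% lower). Zbp1, a sensor of unusual nucleic acid, rose by 2.08 ± 0.25, the RNA sensor gene Ifih1 by 1.59 ± 0.25 and Ikbke, which encodes IKKε, by 1.35 ± 0.23. Tbk1, the kinase of IRF3, was not called at 0.25 ± 0.10 (edgeR, Benjamini-Hochberg adjusted p = 0.0533), nor were the adaptor genes Ticam1 at 0.30 ± 0.26 and Myd88 at 0.16 ± 0.11. Tlr4, the LPS receptor gene, was too low to be tested, with counts of 4 and 10 in the LPS columns and of 3 and 4 in the NC columns. Tbk1 was called higher with library size scaling (adjusted p = 0.0179), with a replicate block (adjusted p = 0.0420) and after NC replicate 1 was left out (adjusted p = 0.0295; edgeR in each case). The member that fell was Dhx58, a regulator of RNA sensing, at -0.25 ± 0.08. The adjusted p of Dhx58 was 0.0761 with library size scaling (edgeR), 0.172 with DESeq2, 0.117 after leaving out LPS replicate 1 and 0.202 after leaving out NC replicate 2 (edgeR).

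Of 15 JAK-STAT genes, all tested, 7 rose, 1 fell and 7 were not called (all tested genes: 15.2% higher, 16.3% lower). Stat2, which encodes a partner of IRF9 in ISGF3, had counts of 276 and 235 in the LPS columns and of 104 and 122 in the NC columns, a log2 fold change of 1.35 ± 0.13. Usp18, an interferon-induced inhibitor of receptor signalling, rose by 1.84 ± 0.41 (not called by DESeq2, adjusted p = 0.0652), and Pias1, an inhibitor of STAT signalling, had a log2 fold change of -0.41 ± 0.06 and was the member that fell.

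Of 18 DNA-binding partners and regulators, 15 were tested, and 6 rose, 0 fell and 9 were not called by edgeR (all tested genes: 15.2% higher, 16.3% lower). At an unadjusted p under 0.05, 0 were lower in edgeR, DESeq2 and limma-voom. DESeq2 called 1 higher, and gave adjusted p = 0.130 for Ikzf1, 0.110 for Spi1 and 0.197 for Irf2bp1. Ikzf1, a lymphoid factor, rose by 1.64 ± 0.42, Trim21, a ubiquitin ligase that acts on IRF proteins, by 1.16 ± 0.21 and Spi1, which encodes PU.1, by 0.95 ± 0.24. In edgeR, Ikzf1 lost its call without LPS replicate 2 (adjusted p = 0.0615), and the adjusted p of Irf2bp1 was 0.212 after leaving out LPS replicate 1 and 0.0750 after leaving out NC replicate 2. Irf2bp1, a corepressor that binds IRF2, rose by 0.38 ± 0.12, while its relatives Irf2bp2 and Irf2bpl were not called, at 0.20 ± 0.18 and 0.09 ± 0.19. Batf2, a partner of IRF1, was not called at -0.01 ± 0.19, and Batf3 was too low to be tested.

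Genes listed as carrying interferon-stimulated response elements were mostly higher. The list was chosen with earlier results of these data known, and its genes were not checked for the element here. Of 37, 32 were tested, 25 rose, 1 fell and 6 were not called (all tested genes: 15.2% higher, 16.3% lower). The median log2 fold change was 1.93, against 0.00 over all tested genes. Ifi44 rose by 3.56 ± 0.55, the GTPase gene Gbp2 by 3.54 ± 0.21 and the chemokine gene Cxcl9 by 3.32 ± 0.33. The IRF1 target genes Tap1, a peptide transporter, and Psmb9, an immunoproteasome subunit, rose by 2.98 ± 0.27 and 2.71 ± 0.38, and the ubiquitin-like modifier gene Isg15 by 2.87 ± 0.34. Ifit1 had counts of 13 and 14 in the LPS columns and of 1 and 2 in the NC columns, and rose by 3.24 ± 0.64. The ratio of its pooled counts, scaled for library size, was 10.2, with an exact binomial 95% counting interval of 3.13 to 52.5. That interval leaves out the spread between libraries. Ciita, the class II transactivator, was too low to be tested, with counts of 3 and 1 in the LPS columns and of 8 and 4 in the NC columns, and the member that fell was Mx1, at -0.90 ± 0.26. Mx1 was not called by DESeq2 (adjusted p = 0.187), nor by edgeR without NC replicate 1 (-0.67, adjusted p = 0.145).

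**Figure D5:**
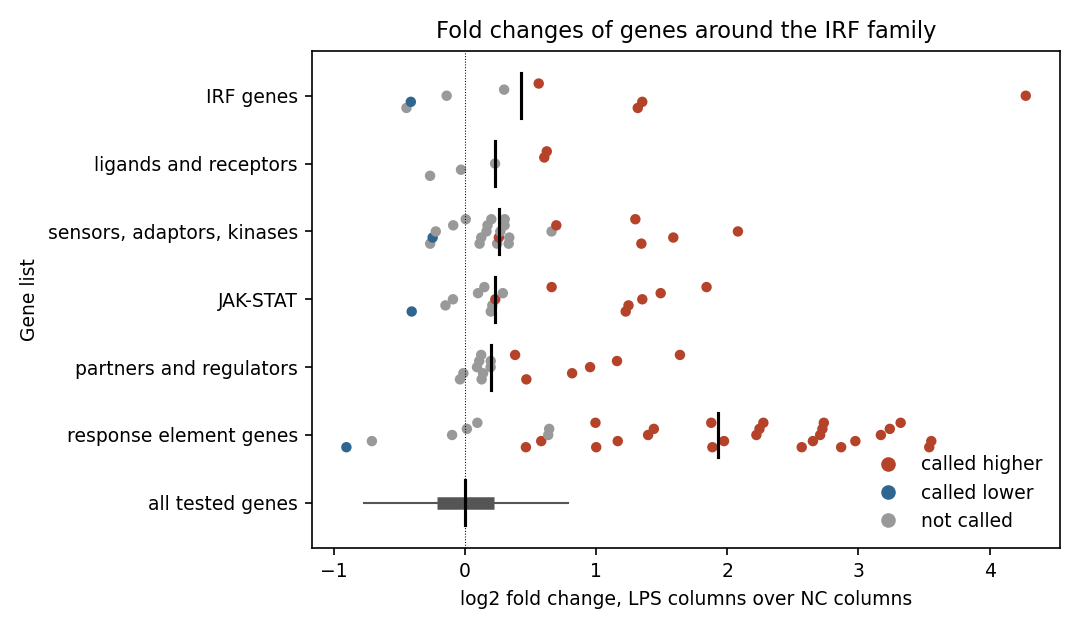
log2 fold changes (LPS columns over NC columns) of the 8 IRF genes and of the tested genes of 5 lists. Each point is a gene and each black line a median. The lists were chosen with earlier results of these data known. For all tested genes the thick bar spans the middle from -0.21 to 0.22 and the thin line the 5% to 95% range from -0.77 to 0.79; the response element genes have a median of 1.93.

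The same motif search over all promoters gave a background for the response element. Of 13266 tested genes with a promoter window, 16.4% were called higher and 16.9% lower. Of the 459 whose windows held an ISRE match, 26.8% were called higher and 14.8% lower. The shares were 16.5% higher and 19.2% lower for 1154 genes with a GAS match, and 16.8% higher and 15.8% lower for 819 genes with a kB match. These are counts without a test, from a search added after the fold changes were known.

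Immune cell markers moved beside the IRF genes, in both directions. Of 16 macrophage and monocyte markers, 15 were tested, 8 rose, 5 fell and 2 were not called (all tested genes: 15.2% higher, 16.3% lower), and none was at 0 in all libraries. Their summed level was 397 to 410 CPM in the LPS columns and 393 to 421 CPM in the NC columns. Aif1, singled out after its values were seen, made up 69.9% to 71.9% of that sum in the LPS columns and 80.6% to 81.3% in the NC columns. Without Aif1 the sum was 112 to 123 CPM in the LPS columns and 73.4 to 81.5 CPM in the NC columns. Itgam rose by 2.68 ± 0.18 and Adgre1 by 1.97 ± 0.16, Csf1r had a log2 fold change of -0.74 ± 0.14 and fell, and the pan-leukocyte gene Ptprc rose by 1.70 ± 0.23. The part of these cells in the changes of Irf7, Irf1, Irf9 and Irf8 was not tested.

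Markers of dendritic and B cells, in which Irf4 and Irf8 are best known, differed widely in how much they were counted. Of 10 dendritic cell markers, 5 were tested, 1 rose, 3 fell and 1 was not called (all tested genes, also for the lists below: 15.2% higher, 16.3% lower). Cd209a was at 0 in all libraries, and the sum was 27.0 to 28.4 CPM in the LPS columns and 25.0 to 26.7 CPM in the NC columns. Zbtb46 (290 and 234 counts in the LPS columns, 362 and 362 counts in the NC columns) and Bst2 made up most of it, and without both the sum was 4.06 to 4.76 CPM in the LPS columns and 6.86 to 6.92 CPM in the NC columns. DESeq2 called 0 of the dendritic markers lower, and edgeR called 1 lower without NC replicate 2. The riser was Bst2, which is also among the response element genes. Flt3, a receptor of dendritic cell precursors, had counts of 12 and 21 in the LPS columns and of 37 and 41 in the NC columns, and Siglech, a marker of plasmacytoid dendritic cells, had counts of 1 and 0 in the LPS columns and of 3 and 1 in the NC columns. Of 10 B and plasma cell markers, 4 were tested and 1, Ighm, fell. Their sum was 28.5 to 29.3 CPM in the LPS columns and 32.8 to 33.1 CPM in the NC columns. Pax5 alone made up 81.5% and 85.3% of it in the LPS columns and 83.5% and 85.1% in the NC columns. Without Pax5 the groups overlapped, with sums of 5.28 and 4.31 CPM in the LPS columns and 5.41 and 4.92 CPM in the NC columns. Cd79a, a B cell receptor subunit, had counts of 1 and 0 in the LPS columns and of 0 and 2 in the NC columns. T and NK cell markers had 2 lower and 2 not called of 4 tested (1 lower with library size scaling or limma-voom, 0 with DESeq2 or without LPS replicate 1, and 1 without any other single library), with sums of 6.65 to 6.66 CPM in the LPS columns and 9.11 to 9.54 CPM in the NC columns, and Ncr1 was at 0 in all libraries. Neutrophil markers had 2 higher and 1 not called of 3 tested (1 higher with DESeq2 and without LPS replicate 1, LPS replicate 2 or NC replicate 1), with sums of 4.11 to 4.59 CPM in the LPS columns and 1.59 to 1.75 CPM in the NC columns. Their part in the values of Irf4 and Irf8 was not tested.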

How the data were processed

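The authors deposited raw counts of reads per gene, with no normalization, in a single table whose leading columns are those of featureCounts. Per the submitters' processing notes, the genome was mm10 and the tools were edgeR 3.12.1, DESeq, featureCounts, Subread 1.5.1, STAR 2.5.3a and Trimmomatic 0.36. Roles of the tools, annotation release, strand setting and molecular identifiers: not given in the sources used here. The gene length column, per the file headers, gave RPKM.

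Genes were filtered with filterByExpr, scaled by TMM factors and compared with edgeR 4.0.16 (R 4.3.3) by its quasi-likelihood test over all tested genes, with 2 residual and 34.0 prior degrees of freedom; the scripts were checked on simulated counts. The SE is the one implied by the F statistic. Replicate pairs differed by more than sampling noise (chi-square per degree of freedom 2.31 in the LPS columns and 2.20 in the NC columns). An exact permutation test of 2 against 2 libraries cannot go below a two-sided p of 0.333 and was not used. Alternatives were library size scaling, DESeq2 1.42.0, limma-voom (limma 3.58.1), no filter, a replicate block and leaving out each library.

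The members and lists were chosen with earlier results of these data known. Named genes were all members, the 3 largest called rises and falls of each pathway list, a fixed set of pathway and marker genes, and the 3 genes nearest Irf7 in pattern. Ifngr1, Aif1, Bst2, Zbtb46, Pax5, Ighm, Prm2, Clu and Cyp17a1 were named after their values were seen. One further family gene and some genes of the lists are not reported here, though list counts and sums include them. Gene IDs are from GENCODE release M21, whose coordinates matched the table for 7 of the 8 genes; Irf4 differed and keeps the table's.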

Additional observations from a re-analysis of the deposited data

How the results depend on the processing

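Of 72 recomputed fold changes of the 8 genes, 68 kept their direction and their side of the threshold, 3 of Irf2 lost the call and 1 of Irf5 gained it. Irf7 ranged from 3.97 to 4.65 on the log2 scale, Irf1 from 1.19 to 1.49, Irf9 from 1.11 to 1.56 and Irf8 from 0.43 to 0.69. DESeq2 called 1370 genes higher and 1747 lower, against 3169 and 3394 with edgeR, and the counts with DESeq2 were 0 for IRF genes lower, 0 for ligands and receptors higher, 0 for sensors lower, 1 for partners and regulators higher and 0 for response element genes lower. Scaling by library size alone, 62% of calls were higher (4207 against 2579 lower), compared with 48.3% with TMM scaling, and 10 sensors were higher and 0 lower. Leaving out each library gave 2255 to 2730 genes higher and 2425 to 2962 lower. It gave 4 IRF genes higher each time and 0 to 1 lower, 1 to 2 ligands and receptors higher and 0 to 1 lower, 0 to 1 sensors lower, and 0 to 2 response element genes lower. The cause of these shifts was not tested. A fit with the replicate number as a replicate block called 3376 genes higher and 3594 lower, with 4 IRF genes higher and 1 lower. By the labels same-numbered libraries share a number, and whether they share anything else is not given. The correlation of their deviations over genes was 0.0155. Depth limits Irf4 most, which had 14 to 19 counts in the LPS columns and 24 to 27 counts in the NC columns. Shares of the summed counts, in place of RPKM, gave Irf3 40.1% and 39.1% in the LPS columns and 54.4% and 56.0% in the NC columns.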
